A study of Homo sapiens with 6 samples.

Results

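Of the 61541 genes counted in H9 cells, 8 encode proteins that carry the signal of the T-cell receptor over its earliest steps, and were chosen by name: LCK, FYN, ZAP70, LAT, LCP2, PLCG1, VAV1 and PRKCQ. H9 is an established human line of T cell lymphoma cells, here of wild-type genotype, and AZD4573 is an inhibitor of CDK9, the kinase that phosphorylates RNA polymerase II and releases it into elongation. The groups were H9 cells given the vehicle DMSO (3 libraries) and H9 cells given AZD4573 for 4 h (3 libraries), at 50 nM in the study's description, in the same growth medium. The labels give the molecule as polyA RNA, and all 6 libraries came from 1 cell line, so the values describe H9 cells only. The labels do not say whether replicates were separate cultures, so p-values measure the spread between these libraries, which may be technical.

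In a T cell, the Src-family kinases LCK and FYN phosphorylate the signalling motifs of the CD3 and zeta chains of the receptor. ZAP70 docks on these motifs and phosphorylates the adaptors LAT and LCP2 (the protein SLP-76), which together form the platform on which PLCG1 and VAV1 act. PLCG1 cleaves a membrane lipid into messengers that release calcium and activate protein kinase C and Ras, VAV1 switches on small GTPases that rearrange actin, and PRKCQ (protein kinase C theta) relays the signal towards NF-kB. The comparison asks how the mRNAs of these proteins stood after short inhibition of CDK9.

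With libraries scaled by TMM, which sets fold changes relative to the bulk of genes, the mRNAs of the 8 proximal genes moved by less than 1.5-fold and not in one direction. In edgeR (quasi-likelihood test, Benjamini-Hochberg adjusted over 17678 genes), 4 fell (LAT, LCP2, VAV1 and PRKCQ) and 3 rose (FYN, PLCG1 and LCK, all of which were lower when libraries were scaled to mitochondrial mRNAs instead), while ZAP70 was not called. Of all genes tested, 74.7% were called at the same adjusted p of 0.05, 37.4% lower and 37.3% higher, so that a share of 7 in 8 is near the background. None of the 8 passed a fold change of 1.5 together with the adjusted p, which 46.4% of all genes tested did, but this count depends on the scaling: with mitochondrial scaling 6 of the 8 were lower past both thresholds, as were 53.3% of all genes tested. The fold change of largest size was that of LAT, -0.49 on the log2 scale by edgeR and -0.48 by DESeq2, and 7 of the 8 passed an unadjusted p of 0.05 in edgeR. Their median log2 fold change was -0.12, beside 0.03 over all genes tested, whose quartiles lay at -0.59 and 0.58. In bulk libraries, a smaller share of a type of cell and less RNA per cell cannot be told apart.

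The libraries held 70367303 to 76571157 counts with DMSO and 52101868 to 63795185 with AZD4573, and all 8 genes passed the filter on low counts. Levels are given as counts scaled by library size and TMM (CPM), with the SD over 3 libraries. The labelled cell type was checked against markers: CD3D, CD3E, CD3G, TRAC, TRBC1, TRBC2, CD5 and CD6 had means from 56.4 CPM (TRAC) to 263 CPM (TRBC1) with DMSO, whereas the T-cell markers CD4, CD2 and CD7 had means of 3.83 CPM, 0.105 CPM and 0.602 CPM. The summed level of the 11 T-cell markers ranged from 1298 to 1358 CPM with DMSO and from 1874 to 1926 CPM with AZD4573. With TMM, 9 of the 10 tested were called higher, beside 37.3% of all genes tested. These rises depend on the scaling: with libraries scaled to mitochondrial mRNAs, CD3D was at -0.29 on the log2 scale. Of 10 receptor and coreceptor genes, a list that shares genes with these markers, 2 were then higher and 5 lower. Among markers of other cells, CD79A (57.8 CPM with DMSO) and EPCAM (155 CPM with DMSO) were well above 0, while the B-cell genes MS4A1, PAX5 and CD22 and all 7 myeloid markers stayed under 1 CPM in both groups.

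The scaling sets what the fold changes are relative to. The 13 mitochondrially encoded mRNAs, which are made by another polymerase, took 3.04% to 3.22% of the counts with DMSO and 4.67% to 4.98% with AZD4573. When libraries were scaled to them, the median log2 fold change of all genes tested was -0.71, with 11878 genes called lower and 2146 higher in place of 6606 lower and 6596 higher, and all 8 proximal genes were called lower, as were 67.2% of all genes tested. With that scaling, the log2 fold changes were -1.22 for LAT, -1.05 for PRKCQ, -1.04 for VAV1, -0.91 for LCP2, -0.80 for ZAP70 and -0.63 for LCK, each past 1.5-fold, and -0.53 for PLCG1 and -0.33 for FYN. With library size only, that median was -0.08. No scaling by cell number or by added RNA was given in the sources used here, so total mRNA per cell cannot be told apart from the level of each gene. Directions below are those with TMM, relative to the bulk of genes. Differences from the median of all genes were nearly the same with each scaling (for LAT -0.51 with TMM and -0.51 with mitochondrial scaling, and for FYN 0.39 with both). This follows from the method, since a scaling applies 1 factor to all genes of a library, and is no separate evidence.

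**Figure D1:**
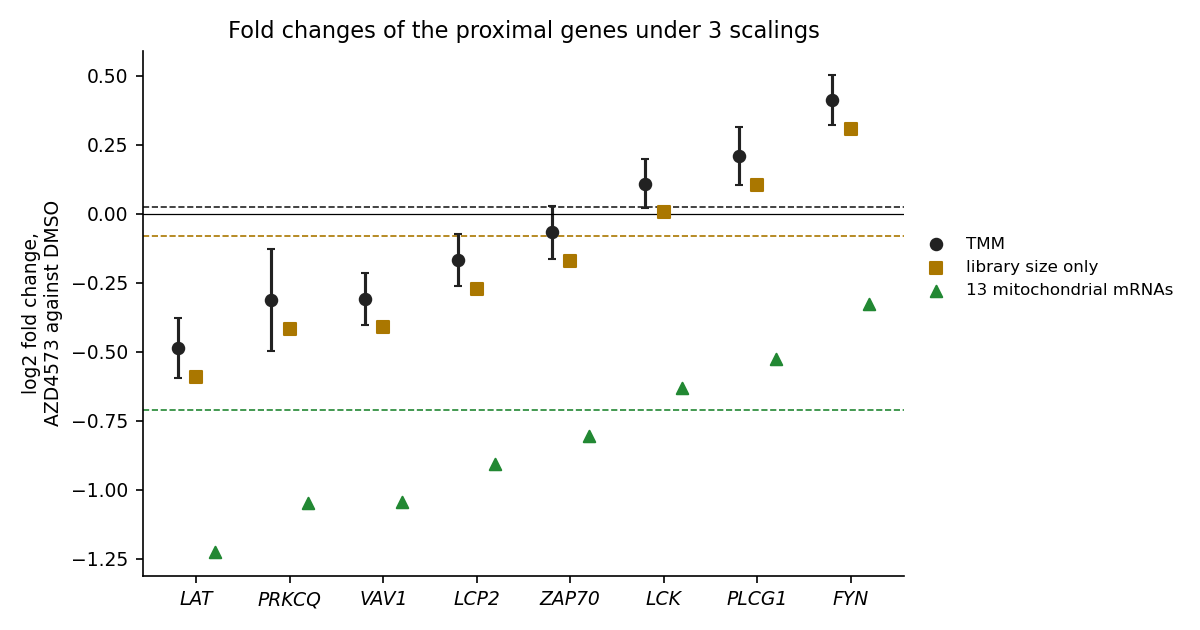
Log2 fold change (AZD4573 against DMSO) of each proximal gene with TMM (circles, bars are 95% confidence intervals), library size only (squares) and scaling to 13 mitochondrial mRNAs (triangles), and dashed lines at the median of all genes tested with each scaling. The genes keep their order from LAT to FYN with each scaling, while LCK, PLCG1 and FYN turn from above 0 with TMM to below 0 with mitochondrial scaling.

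The genes lie on 8 chromosomes and differ in length and in their starts. On GRCh38 (GENCODE release 44), LCK spans chr1:32251244-32286165, FYN chr6:111660332-111873452 on the minus strand, ZAP70 chr2:97713576-97739862 and LAT chr16:28984826-28990784. LCP2 spans chr5:170246233-170297815 on the minus strand, PLCG1 chr20:41136960-41196801, VAV1 chr19:6772708-6857366 and PRKCQ chr10:6427143-6580301 on the minus strand. The stretches just upstream of 5 starts of 4 of these genes are shown because they set side by side FYN (which rose with TMM), VAV1 (which fell), ZAP70 (not called) and both starts that RefSeq gives for LCK. They come from RefSeq (GRCh38.p14), 5′ to 3′ on the strand of the gene, and hold no base of an annotated exon. Capitals mark matches on either strand to short motifs. The GATA motif was searched as the letters GATA with A or T before them and A or G after them. The other motifs were the GC box (GGGCGG), the TATA box of core promoters (TATAAA), the core letters of ETS factor sites (CGGAAG) and the core letters of RUNX factor sites (TGTGGT).
FYN, chr6:111873453-111873587, minus strand: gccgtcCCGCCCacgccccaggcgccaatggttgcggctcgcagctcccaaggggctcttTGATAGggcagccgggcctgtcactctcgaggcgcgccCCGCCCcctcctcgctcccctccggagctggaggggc
VAV1, chr19:6772558-6772707, plus strand: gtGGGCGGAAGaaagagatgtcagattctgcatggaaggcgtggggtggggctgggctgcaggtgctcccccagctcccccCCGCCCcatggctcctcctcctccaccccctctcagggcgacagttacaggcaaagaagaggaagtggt
ZAP70, chr2:97713426-97713575, plus strand: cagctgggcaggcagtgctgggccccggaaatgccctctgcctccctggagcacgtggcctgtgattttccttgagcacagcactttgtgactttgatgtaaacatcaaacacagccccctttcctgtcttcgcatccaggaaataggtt
LCK, upstream start, chr1:32251115-32251243, plus strand: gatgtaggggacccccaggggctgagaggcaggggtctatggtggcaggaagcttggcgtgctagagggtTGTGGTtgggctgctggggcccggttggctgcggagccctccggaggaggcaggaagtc
LCK, downstream start, chr1:32273971-32274112, plus strand: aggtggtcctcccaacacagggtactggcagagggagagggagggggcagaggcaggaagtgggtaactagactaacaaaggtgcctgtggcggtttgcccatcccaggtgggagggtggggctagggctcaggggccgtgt

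The FYN stretch held a GATA motif between 2 GC boxes, and the VAV1 stretch held a GC box that shares letters with an ETS core, with another GC box further on. The ZAP70 stretch and the downstream LCK stretch held none of these letters, and the upstream LCK stretch held a RUNX core. RefSeq gives further starts for FYN and ZAP70 that are not shown, and another start of ZAP70 had 4 GC boxes upstream. In windows of 300 bases at each start, GATA motifs were found for FYN and LCK, and ETS cores for FYN, VAV1 and ZAP70. Over the 300-base windows of all 15 starts that RefSeq gives for the 8 genes, 4 held a GATA motif (25.0% of 35116 windows of all genes), 6 a GC box (45.0% of all), 1 a TATA box (11.5% of all), 3 an ETS core (19.5% of all) and 3 a RUNX core (13.1% of all). These counts were not tested against those shares, and a match is a string of letters, not a bound site.

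LCK, the Src-family kinase bound to CD4 and CD8 that phosphorylates the receptor first, had 197, 187 and 185 CPM with DMSO and 202, 205 and 208 CPM with AZD4573. The groups did not overlap, though the lowest treated library stood only a little above the highest control. The means were 190 ± 6.41 CPM and 205 ± 3.14 CPM (SD, n = 3 each), a log2 fold change of 0.11 (SE 0.041, edgeR quasi-likelihood test, Benjamini-Hochberg adjusted p = 0.0269). The call was lost without DMSO replicate 2 (edgeR adjusted p = 0.15), without DMSO replicate 3 (0.162), without AZD4573 replicate 2 (0.0711) and without AZD4573 replicate 3 (0.0979). With library size only, the log2 fold change was 0.0057, and with mitochondrial scaling it was -0.63.

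FYN, the other Src-family kinase of T cells, had 167, 165 and 159 CPM with DMSO and 215, 213 and 227 CPM with AZD4573. It showed the widest gap upward among the 8, with every treated library far above every control. The means were 164 ± 4.11 CPM and 218 ± 7.54 CPM, a log2 fold change of 0.41 (SE 0.0423, edgeR adjusted p = 9.6e-07). It was called higher in 12 of 13 alternatives, and with mitochondrial scaling it was -0.33 and called lower.

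ZAP70, the Syk-family kinase that docks on the phosphorylated receptor, was the most counted of the 8 genes, with 282, 308 and 312 CPM with DMSO and 282, 290 and 290 CPM with AZD4573. The groups overlapped, because DMSO replicate 1 stood at the level of the treated libraries. The means were 301 ± 16.1 CPM and 287 ± 4.46 CPM, a log2 fold change of -0.07 with a 95% interval from -0.16 to 0.03 (edgeR adjusted p = 0.191). Without DMSO replicate 1 it was -0.12 and was called lower (edgeR adjusted p = 0.00755), and with library size only it was -0.17 and called lower (edgeR adjusted p = 0.00481).

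LAT, the membrane adaptor that ZAP70 phosphorylates, had 92.6, 102 and 103 CPM with DMSO and 68.9, 72.0 and 71.6 CPM with AZD4573. All treated libraries were well below all controls, and no other gene of the 8 fell as far. The means were 99.2 ± 5.77 CPM and 70.8 ± 1.69 CPM, a log2 fold change of -0.49 (SE 0.0509, edgeR adjusted p = 1.2e-06), a fold of 1.40 downward. LAT shares 2201 of its 4538 exon bases with other annotated genes, chiefly ENSG00000261067 on the same strand, so that the estimate of its counts rests in part on how reads were divided. ENSG00000261067 had 5.47 ± 1.17 CPM with DMSO and 3.91 ± 0.318 CPM with AZD4573, 5.50% and 5.49% of the LAT counts, and the sum with LAT went from 105 ± 6.74 to 74.7 ± 1.52 CPM.

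LCP2, the cytosolic adaptor SLP-76, had 74.5, 75.4 and 76.6 CPM with DMSO and 66.5, 66.4 and 68.7 CPM with AZD4573. The groups were tight and apart, with a small gap. The means were 75.5 ± 1.07 CPM and 67.2 ± 1.29 CPM, a log2 fold change of -0.17 (SE 0.0438, edgeR adjusted p = 0.00346). LAT and LCP2 act on the same platform, and the fall of LAT was the larger: the log2 ratio of LAT to LCP2 counts within a library was 0.39 ± 0.07 with DMSO and 0.08 ± 0.04 with AZD4573, with no overlap.

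PLCG1, the phospholipase recruited by LAT, had 175, 187 and 198 CPM with DMSO and 212, 222 and 213 CPM with AZD4573. The controls were spread more widely than those of most of the 8 genes, but each lay below each treated library. The means were 186 ± 11.5 CPM and 216 ± 5.31 CPM, a log2 fold change of 0.21 (SE 0.0484, edgeR adjusted p = 0.00141). With library size only it was 0.11 and not called (edgeR adjusted p = 0.077), and with mitochondrial scaling it was -0.53. PLCG1 shares 614 exon bases with 4 other genes, of which ZHX3, on the opposite strand, had counts equal to 6.58% of those of PLCG1 with DMSO and 7.48% with AZD4573. The antisense gene PLCG1-AS1 went from 1.03 ± 0.0583 to 3.31 ± 0.58 CPM, small beside the change in PLCG1.

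VAV1, the exchange factor that activates Rac, had 128, 125 and 122 CPM with DMSO and 104, 97.7 and 102 CPM with AZD4573. Every treated library lay below every control. The means were 125 ± 3.16 CPM and 101 ± 3.03 CPM, a log2 fold change of -0.31 (SE 0.0434, edgeR adjusted p = 2.2e-05).

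PRKCQ, protein kinase C theta, was the least counted of the 8 genes (547 to 1093 counts per library), with 13.9, 13.3 and 13.6 CPM with DMSO and 11.5, 9.60 and 11.8 CPM with AZD4573. The controls were tight, the treated libraries were spread by AZD4573 replicate 2, and the groups did not overlap. The means were 13.6 ± 0.32 CPM and 10.97 ± 1.21 CPM, a log2 fold change of -0.31 (SE 0.0852, edgeR adjusted p = 0.0047), so that its estimate equals that of VAV1 with about double the error. LAT, LCP2, VAV1 and PRKCQ were called lower in every one of the 13 alternatives. Non-overlapping groups, seen in 7 of the 8 genes, were seen in 77.8% of all genes tested.

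**Figure D2:**
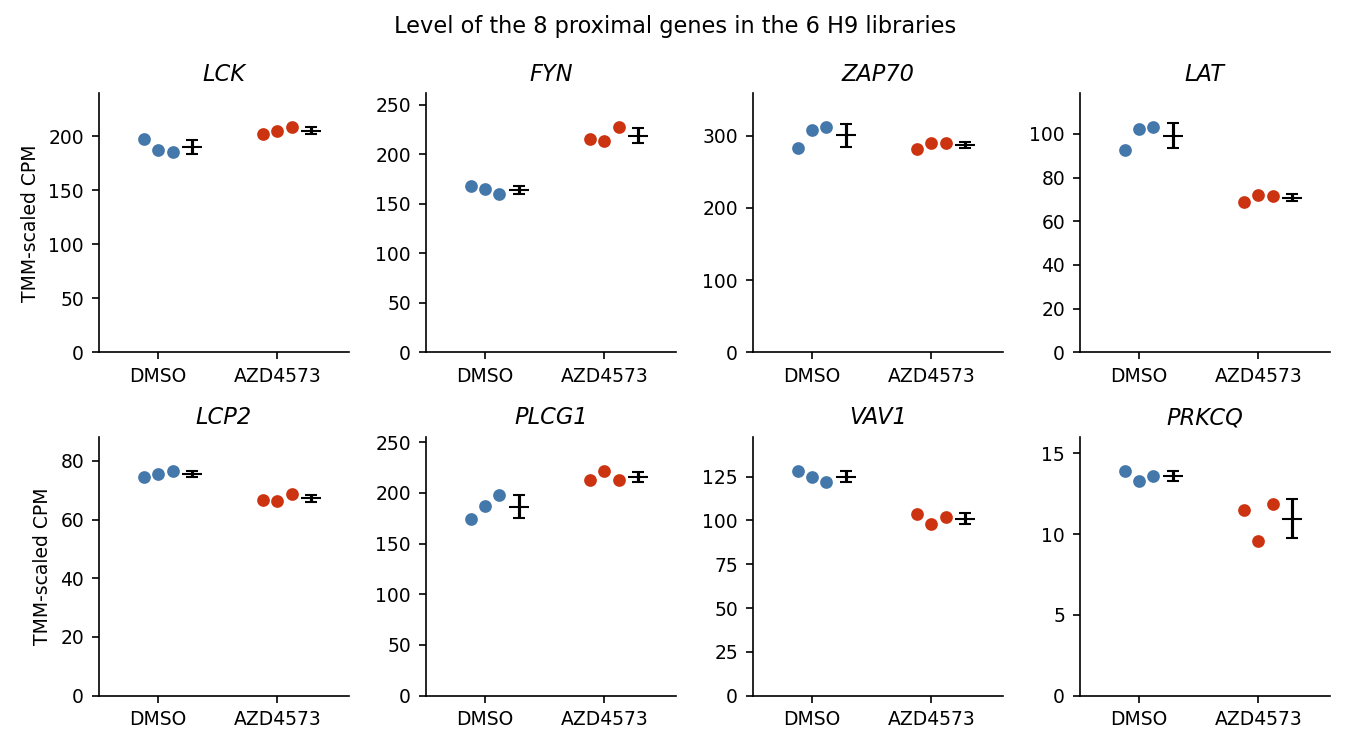
Level of each proximal gene (TMM-scaled CPM, axes from 0) in each library with DMSO (blue) and AZD4573 (red), with the mean and SD over 3 libraries in black. LAT falls from 99.2 to 70.8 CPM and FYN rises from 164 to 218 CPM, ZAP70 overlaps between groups, and with mitochondrial scaling (not drawn) FYN, LCK and PLCG1 are lower.

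Ratios of a pair of genes within a library do not depend on how libraries are scaled. Of the 28 pairs of the 8 genes, 24 had log2 count ratios that did not overlap between groups, each with p = 0.1 in an exact two-sided permutation test, the smallest p that 3 against 3 libraries allow (0.117 after Benjamini-Hochberg adjustment over 28 pairs). The share of such pairs among all genes tested was not computed, so this count is not set apart from the background. As single genes, 77.8% of all genes tested had groups that did not overlap. The ratio of FYN to LAT moved most, from 0.73 ± 0.12 to 1.62 ± 0.05 on the log2 scale, a difference of 0.90. FYN also gained on LCK. The log2 ratio of LCK to FYN counts was 0.24, 0.18 and 0.22 with DMSO and -0.09, -0.06 and -0.12 with AZD4573. Its sign rests on counts, which are not divided by exon length. Per kilobase of exon (TPM), LCK stayed above FYN with AZD4573, at 205 and 98.0. ZAP70 gained 0.42 on its substrate LAT, with SDs of 0.01 in both groups, and changed by -0.28 against PLCG1 (0.69 ± 0.03 and 0.41 ± 0.03). LAT changed by -0.70 against PLCG1, the enzyme it recruits (-0.91 ± 0.03 and -1.61 ± 0.03).

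The pairs that overlapped between groups were LCK with PLCG1, LAT with VAV1, LAT with PRKCQ and VAV1 with PRKCQ. The log2 ratio of VAV1 to PRKCQ was 3.20 ± 0.03 with DMSO and 3.21 ± 0.12 with AZD4573 (exact permutation p = 0.9). By their shifts with TMM alone, the genes were put in 3 sets: FYN, PLCG1 and LCK above 0 (all below 0 with mitochondrial scaling), ZAP70 and LCP2 within 0.17 below 0, and VAV1, PRKCQ and LAT further below. The sets were read from these shifts, carry no test and do not follow from the pair ratios. The log2 ratio of LCK to FYN, within a set, changed by -0.30, and that of LCK to ZAP70, across sets, by 0.18.

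Levels of different genes were compared per kilobase of exon, scaled within each library (TPM). With DMSO, LCK (229 ± 5.13 TPM) and ZAP70 (227 ± 15.1 TPM) led and overlapped each other. VAV1 followed at 116 ± 2.26 TPM, then FYN (88.8 ± 2.14), LAT (87.8 ± 6.26) and PLCG1 (77.5 ± 5.53), in which neighbours overlapped. LCP2 (44.4 ± 1.12 TPM) and PRKCQ (16.6 ± 0.137 TPM) stood last and apart. The counted order, with ZAP70 and LCK followed by PLCG1, therefore changes once length is taken into account, since the exons of PLCG1 cover 9648 bases and those of LCK 3332.

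With AZD4573, LCK (205 ± 0.645 TPM) and ZAP70 (180 ± 1.28 TPM) no longer overlapped. FYN stood at 98.0 ± 2.58 TPM, above VAV1 (78.0 ± 2.88) and PLCG1 (74.4 ± 1.91), which overlapped. LAT (51.9 ± 0.76 TPM), LCP2 (32.8 ± 0.394 TPM) and PRKCQ (11.1 ± 1.22 TPM) closed the order, each apart from the next. TPM are scaled by the whole library per length, so they order genes within a group and were not compared between groups. The order also rests on the length used. With the longest transcript as the length, 4 of the 8 genes kept their rank with DMSO and 6 of 8 with AZD4573, ZAP70 led LCK in both groups (268 and 223 TPM with DMSO, 216 and 204 TPM with AZD4573), and FYN was above VAV1 with DMSO already (132 and 126 TPM).

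The relatives of each gene show which copy of a family H9 cells expressed. Of 22 listed relatives, 17 were tested, and 4 were called lower and 6 higher (37.4% and 37.3% of all genes tested). With mitochondrial scaling 12 were lower and 2 higher (LAT2 and PLCG2), beside 67.2% and 12.1% of all genes tested. ZAP70 stood alone, since its relative SYK had 0 counts in each of the 6 libraries, which allows a level of up to 3 counts, 0.0392 to 0.0576 CPM, by counting error only. Within the Src family, LCK held 58.0% ± 0.334 of the summed level per length with DMSO and 56.3% ± 0.303 with AZD4573, whereas the share of FYN went from 22.5% ± 0.319 to 26.9% ± 0.489. BLK, known from B cells, held the third share (14.8% ± 0.21 and 14.0% ± 0.2), and its log2 fold change was 0.08 (edgeR adjusted p = 0.167). All family shares rest on the exon length used, which their SDs do not cover. With the longest transcript as the length, LCK, FYN and BLK had 223, 132 and 95.4 TPM with DMSO, in place of 229, 88.8 and 58.4 TPM. YES1 fell from 13.6 ± 1.02 to 6.48 ± 0.607 CPM (log2 fold change -1.07, edgeR adjusted p = 1.84e-07). FRK fell by 0.90 on the log2 scale from a low level, and SRC (2.92 CPM with DMSO) and FGR (0.516 CPM with DMSO) were not called.

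PLCG1 and PLCG2, the phospholipase of B cells and platelets, moved apart in size. PLCG2 had 49.3, 51.5 and 51.8 CPM with DMSO and 105, 108 and 110 CPM with AZD4573, a log2 fold change of 1.08 (SE 0.0454, edgeR adjusted p = 2.33e-10) that was 0.34 with mitochondrial scaling. The share of PLCG1 in their summed level per length went from 87.4% ± 0.412 to 79.2% ± 0.53. The count ratio of PLCG2 to PLCG1 was 0.282, 0.275 and 0.262 with DMSO and 0.493, 0.485 and 0.516 with AZD4573.

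LAT and LAT2, the LAT-like adaptor of B and myeloid cells, moved in opposite directions. LAT2 had 1.48, 1.71 and 1.55 CPM with DMSO and 19.3, 23.9 and 23.5 CPM with AZD4573, a log2 fold change of 3.82 (SE 0.111, edgeR adjusted p = 1.87e-11). The count ratio of LAT2 to LAT rose 19.6-fold, from 0.0160, 0.0167 and 0.0150 to 0.279, 0.331 and 0.328. Beside this, the summed level of the 6 B-cell markers ranged from 61.0 to 67.1 CPM with DMSO and from 92.5 to 103 CPM with AZD4573, of which CD79A made most, and that of the 7 myeloid markers from 0.421 to 0.56 and from 0.629 to 1.18 CPM. CD79A rose by 0.70 and CD79B fell by 0.71 on the log2 scale (edgeR adjusted p = 6.37e-08 and 4.34e-05). The myeloid markers CD14 and CD68 were called higher at low levels, from 0.0724 to 0.244 CPM and from 0.105 to 0.335 CPM (log2 fold changes 1.76 and 1.66, edgeR adjusted p = 0.0221 and 0.0103). MS4A1 was at 0.302 CPM with AZD4573, PAX5 and CD22 had at most 1 count in each treated library, and the part of such cells in the result was not tested beyond these values.

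VAV1 held 89.2% of the VAV family per length with DMSO and 87.4% with AZD4573. VAV2 (18.2 ± 0.617 and 17.3 ± 0.729 CPM) and VAV3 (2.34 ± 0.381 and 2.51 ± 0.299 CPM) were not called. PRKCQ, by contrast, was a minor form of protein kinase C in these cells, at 7.44% ± 0.213 of the family per length with DMSO and 5.31% ± 0.579 with AZD4573. PRKCA rose from 20.7% ± 0.582 to 29.8% ± 0.944 of the family and PRKCB from 7.91% ± 0.579 to 12.9% ± 0.497, while PRKCD went from 21.7% ± 0.604 to 11.7% ± 0.67. On the CPM scale, PRKCA, PRKCB, PRKCE and PRKCH were called higher (log2 fold changes 0.70, 0.88, 0.27 and 0.42), of which all but PRKCB were below 0 with mitochondrial scaling, PRKCD and PRKCZ lower (-0.72 and -0.81), and PRKCI not (0.01). The count ratio of PRKCB to PRKCQ was 3.78, 3.51 and 3.42 with DMSO and 7.81, 8.99 and 7.81 with AZD4573. These counts are not divided by length, and the exons of PRKCB cover 11049 bases and those of PRKCQ 3285. Per length, PRKCB and PRKCQ had 17.7 and 16.6 TPM with DMSO and 26.9 and 11.1 TPM with AZD4573.

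**Figure D3:**
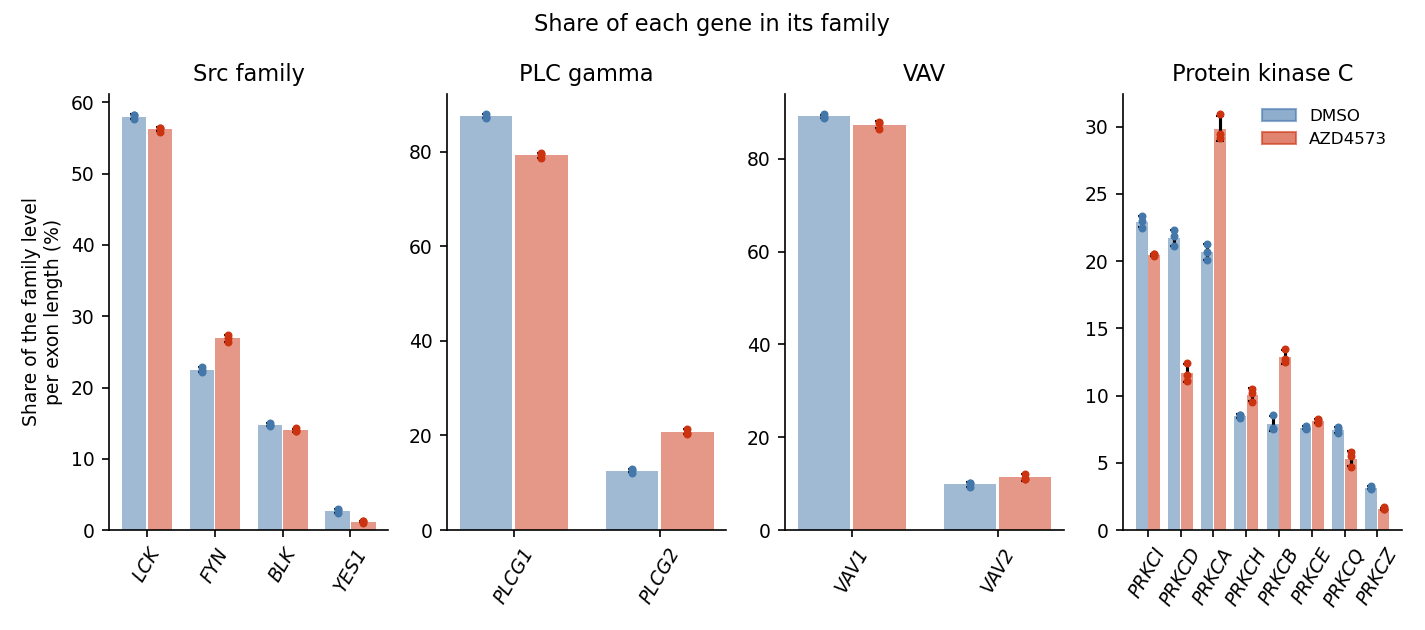
Share of each gene in the summed level of its family (TPM, %) with DMSO (blue) and AZD4573 (red), as mean bars with SD and 3 library points, for genes with at least 2% in a group. PLCG1 gives way from 87.4% to 79.2% and PRKCQ from 7.44% to 5.31%, while FYN goes from 22.5% to 26.9% of the Src family.

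The partners that work next to the 8 proteins were read from a list of 93 genes of the pathway, of which 91 were tested. In total 41 were called lower and 40 higher (37.4% and 37.3% of all genes tested), and their median log2 fold change was -0.0037. At a fold change of 1.5 as well, 22 were lower and 15 higher (23.7% and 22.7% of all genes tested). With mitochondrial scaling 73 were lower and 5 higher (67.2% and 12.1% of all genes tested). Upstream of LCK, 7 of 10 receptor and coreceptor genes were called higher and 2 lower (37.3% and 37.4% of all genes tested), but 2 higher and 5 lower with mitochondrial scaling: TRAC, the constant part of the alpha chain, went from 56.4 ± 1.2 to 116 ± 2.31 CPM and CD28 fell by 0.43 on the log2 scale. CD247, the zeta chain on which ZAP70 docks, fell by 0.11 on the log2 scale (edgeR adjusted p = 0.0218), and CD3D rose by 0.45 (-0.29 with mitochondrial scaling).

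Beside LAT and LCP2, 8 of 18 adaptors were called lower and 6 higher (37.4% and 37.3% of all genes tested). The falls reached much further than those of the 8 genes. GRAP2 (the protein GADS), which bridges LAT and LCP2, had 59.2, 57.1 and 58.0 CPM with DMSO and 24.1, 21.6 and 20.3 CPM with AZD4573, a log2 fold change of -1.40 (edgeR adjusted p = 3.99e-10). The ratio of GRAP2 to LCP2 counts was 0.795, 0.758 and 0.756 with DMSO and 0.363, 0.325 and 0.295 with AZD4573, and that of GRAP2 to LAT fell by 0.92 on the log2 scale. LAX1, an adaptor that restrains signalling, went from 18.1 ± 0.487 to 4.28 ± 0.334 CPM (-2.08), whereas GAB2 rose by 1.58 on the log2 scale.

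Of 3 Tec-family kinases tested, the family that phosphorylates PLCG1, 2 were called lower and 1 higher (37.4% and 37.3% of all genes tested). TEC fell by 0.51 on the log2 scale, and TXK rose by 0.44 (-0.30 with mitochondrial scaling). The pairings with relatives and partners (PLCG2 with PLCG1, LAT2 with LAT, GRAP2 with LAT and with LCP2, PRKCB with PRKCQ) were chosen after their values were seen. GRAP2 was also named on that account, as were CD247 and TEC.

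Of 20 negative regulators tested, 12 were called lower and 8 higher (37.4% and 37.3% of all genes tested). DOK1, which restrains Ras, showed the largest fall among those named, from 18.7 ± 0.313 to 1.97 ± 0.336 CPM (log2 fold change -3.25, edgeR adjusted p = 4.62e-11). PTPRC (CD45), counted in this list among the 8 higher, removes the inhibitory phosphate from LCK and FYN and so also promotes signalling. It rose from 413 ± 1.34 to 873 ± 43.7 CPM (1.08).

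Downstream of VAV1, 6 of 8 genes of the actin branch were called higher and 1 lower (37.3% and 37.4% of all genes tested), but 0 higher and 6 lower with mitochondrial scaling: DOCK2, another activator of Rac, rose by 0.77 on the log2 scale (0.03 with mitochondrial scaling) and WIPF1 fell by 0.49. Downstream of PLCG1, 8 of 13 genes of the calcium branch were lower and 4 higher (37.4% and 37.3% of all genes tested). The calcium channel ITPR1 was at 1.11 and the transcription factor NFATC3 at -0.95. In the Ras branch 5 of 10 were higher and 2 lower (37.3% and 37.4% of all genes tested), with MAPK3 at 0.60 (-0.14 with mitochondrial scaling). In the NF-kB branch, 6 of 9 genes were lower and 3 higher (37.4% and 37.3% of all genes tested). Of these, MALT1, the protease of the complex that PRKCQ activates, went from 55.2 ± 0.322 to 18.3 ± 1.34 CPM (-1.60), and PDPK1 was at 0.64 (-0.10 with mitochondrial scaling). With mitochondrial scaling, 14 of the adaptors were lower and 1 higher, 18 of the negative regulators lower and 1 higher, 11 of the calcium branch lower and 1 higher, 9 of the Ras branch and 8 of the NF-kB branch lower, and 2 of the Tec kinases lower. Of all genes tested, 67.2% were lower and 12.1% higher with that scaling.

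**Figure D4:**
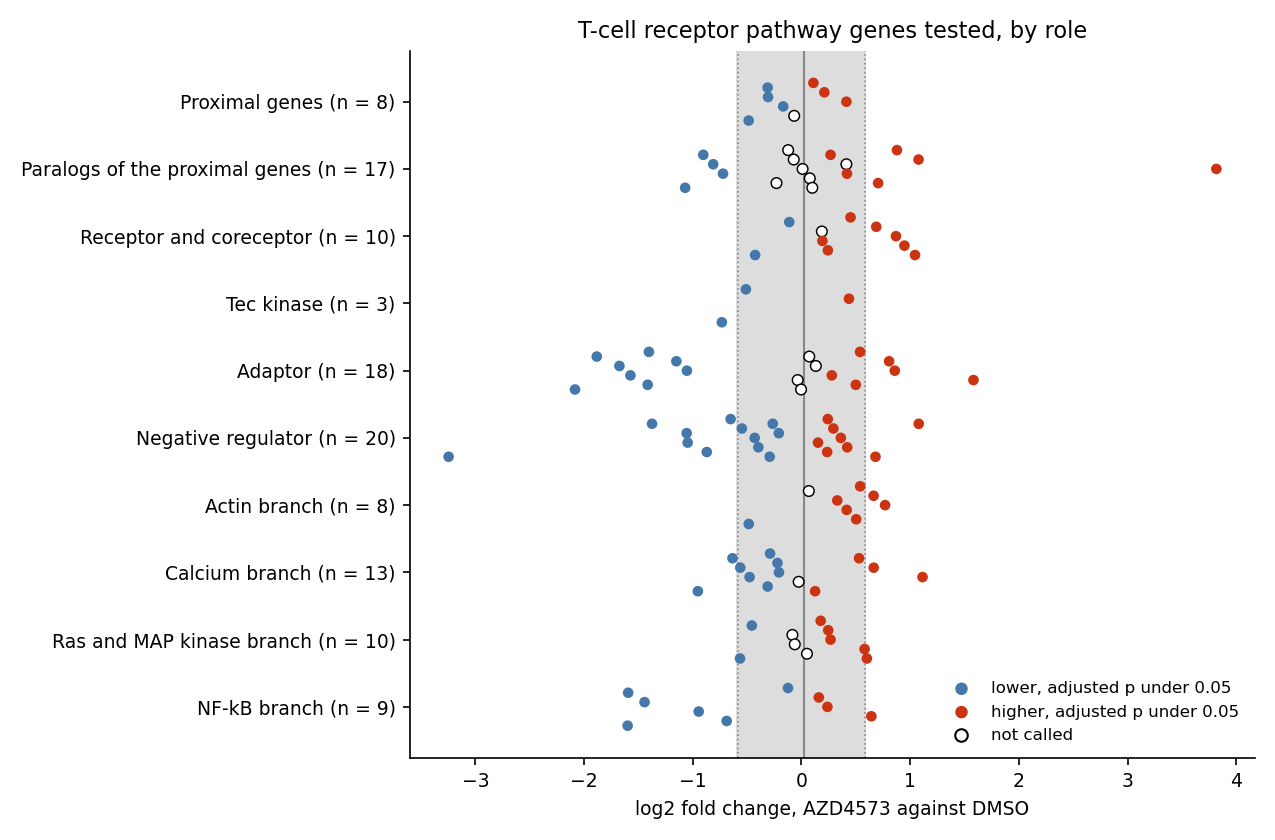
Log2 fold change with TMM of each tested gene, in rows by role, coloured by call (adjusted p under 0.05 in edgeR), with the quartiles of all genes tested as a grey band, their median as a line and a 1.5-fold change as dotted lines. With TMM all 8 proximal genes lie inside the dotted lines, whereas the other pathway genes reach from -3.25 (DOK1) to 1.58 (GAB2) and the relatives up to 3.82 (LAT2). With mitochondrial scaling, 73 of 91 pathway genes and all 8 proximal genes are lower, as are 67.2% of all genes tested.

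For 7 of the 8 genes (all but LAT), the nearest pattern over the 6 libraries was sought among 98 other genes of the pathway, as the root mean square distance of log2 CPM relative to the DMSO mean. LCK lay nearest to the adaptor GRB2 (distance 0.0328), FYN to CD3D (0.0605) and ZAP70 to the NF-kB kinase IKBKB (0.0488). LCP2 lay nearest to the transcription factor NFATC2 (0.046), PLCG1 to the NF-kB kinase subunit IKBKG (0.0365), VAV1 to NFATC1 (0.0486) and PRKCQ to VAV1 (0.0747). PRKCQ and VAV1 were the only neighbours both drawn from the 8 genes.

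Gene span, which did not enter the choice of genes, did not order the 8 genes. LAT, the shortest at 5.96 kb, fell the furthest, while the 5461 tested genes under 10 kb had a median log2 fold change of 0.22. FYN (213 kb) and PRKCQ (153 kb), the longest, moved in opposite directions, beside a median of 0.04 over 2688 genes above 100 kb. LCK, LCP2, PLCG1 and VAV1, of 34.9 to 84.7 kb, were at 0.11, -0.17, 0.21 and -0.31, beside a median of -0.13 over 4956 genes of 30 to 100 kb, and ZAP70 (26.3 kb) was at -0.07 beside -0.01 over 4533 genes of 10 to 30 kb.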

How the data were processed

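Gene-level RNA-seq counts of 3 DMSO and 3 AZD4573 libraries of H9 cells were analysed. The deposited values were expected counts, given as whole numbers, which the authors made by trimming reads with Cutadapt 2.3, aligning them to GRCh38 with STAR 2.7.8a and estimating counts per gene with RSEM 1.3.3, whose default ignores strand. The labels name polyA selection and the study's methods a depletion of ribosomal RNA, which was not settled here. Counts were fitted in R 4.3.3 with edgeR 4.0.16 (TMM, low-count filter with a minimum of 10, quasi-likelihood test, treatment only, Benjamini-Hochberg adjustment over 17678 of 61541 genes, called at an adjusted p of 0.05, and with a fold change of 1.5). The 5 rows of reporter sequences held 0 counts and were left out.

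The 8 genes and all lists were chosen with earlier results of these data known. Genes named beside them were each tested relative, the gene with the largest fall and rise of each role at 5 CPM or more, and each nearest pattern, and some that met these rules are not reported here. CPM values and log2 count ratios were computed here, and gene lengths came from GENCODE release 44, matched for 61369 of 61541 genes. Alternatives were RLE, library size or mitochondrial scaling, other filters, each library left out, a replicate block and DESeq2 1.42.0.

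On simulated counts of 17406 genes with this design, edgeR called 46 of 49 genes at a log2 fold change of -1, 42 of 49 at -0.5, 42 of 50 at 0.5, 49 of 50 at 1 and 7 of 17208 unchanged genes. The simulation gave all genes the same small dispersion and changed few genes, equally up and down. In the real libraries 74.7% of genes tested were called, so these rates do not carry over, and the choice of scaling was not probed. Within groups, libraries differed by more than counting noise, so none was merged.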

Additional observations from a re-analysis of the deposited data

How the results depend on the processing

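Over the 13 alternatives, 91 of 104 values of the 8 genes kept their direction and call. Scaling to mitochondrial mRNAs reversed LCK (-0.63), FYN (-0.33) and PLCG1 (-0.53), brought ZAP70 to a call (-0.80), and gave 8 genes lower and 0 higher, 73 and 5 of the pathway list, 12 and 2 of the relatives, and 11878 and 2146 of all genes. With it, the medians by gene span were -0.52 under 10 kb, -0.74 at 10 to 30 kb, -0.87 at 30 to 100 kb and -0.70 above 100 kb. With library size only, LCK (0.0057) and PLCG1 (0.11) lost their calls, ZAP70 gained one (-0.17) and 1 of the 8 was higher. Without a filter LCK was 0.067 and not called. With single libraries left out, LCK ranged from 0.080 to 0.13 and lost its call in 4 of 6 fits, and ZAP70 ranged from -0.12 to -0.053 and gained a call without DMSO replicate 1. A fold change of 1.5 as well left 0 of the 8 lower and 0 higher, 22 and 15 of the pathway list, and 4191 and 4012 of all genes, and with mitochondrial scaling and that fold change together, an alternative added after the data were seen, 6 of the 8 were lower and 0 higher, and 9431 and 1770 of all genes. Of the 8 ranks by level per length with DMSO, 4 stayed with the longest transcript and 4 without DMSO replicate 1. The causes were not tested.

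Of 520 values of the 40 other genes that met the naming rules, 481 kept direction and call. Those that reversed with mitochondrial scaling were TXK (-0.30), MAPK3 (-0.14), PDPK1 (-0.10), BLK (-0.66), FGR (-0.33), VAV3 (-0.64), PRKCA (-0.033), PRKCE (-0.47), PRKCH (-0.32), PRKCI (-0.73), GRB2 (-0.67), CD3D (-0.29) and IKBKG (-0.50). Reversed with library size only were BLK (-0.027), VAV3 (-0.0031), PRKCI (-0.094) and GRB2 (-0.033), and further PRKCI without a filter (-0.032), and, with single libraries left out, VAV3 (range -0.036 to 0.19) and PRKCI (range -0.020 to 0.011).

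Replicate numbers did not pair the libraries (correlations of deviations for equal numbers -0.0208, 0.0417 and 0.0316). With a replicate block, 4 of the 8 genes were lower and 3 higher, as without it, with LCK at an edgeR adjusted p of 0.0469.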
